A study of Mus musculus with 6 samples.

Results

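The 36 autophagy genes described here were taken from the deposited table by gene symbol, from a list that covers the core machinery from initiation to cargo receptors. Each symbol matched 1 of the 54532 rows of the table, all as protein-coding genes, and they lie on 18 chromosomes (coordinates given below are those of the table, build GRCm38). Their RNA was measured by bulk RNA-seq in mouse macrophages, in 3 control libraries (labelled shControl in the title and WT as genotype) and 3 libraries of the SAHH-KO group (labelled SAHH-KO in the title and SAHH knockdown as genotype). SAHH is S-adenosylhomocysteine hydrolase, the enzyme that clears the by-product of methylation reactions and is encoded by Ahcy. Cells of both groups are labelled as primary peritoneal macrophages drawn out with thioglycollate, collected 4 days later, selected by 6 h of adherence, and stimulated for 8 h with IFN-γ at 2 ng/mL and LPS at 10 ng/mL. Every value therefore belongs to stimulated cells, and no unstimulated library was analysed here. Whether replicates came from different mice or dishes is not stated by the labels, so p-values reflect how far these libraries spread and that spread may be only technical.

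Autophagy is the route by which a cell wraps part of its cytoplasm, a damaged organelle or a microbe in a double membrane and delivers it to lysosomes. A kinase complex built around ULK starts the process, a lipid kinase complex with Beclin 1 marks the site, and ATG9 and ATG2 bring in lipid. Ubiquitin-like conjugation reactions then attach proteins of the LC3 and GABARAP family to the growing membrane, where cargo receptors bind them. In macrophages, parts of the same machinery also act on phagosomes and restrain inflammatory signalling.

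Ahcy, the targeted gene, read 25.8, 22.6 and 24.4 in the control libraries and 5.51, 5.504 and 6.23 FPKM in the SAHH-KO libraries (FPKM is reads per length of gene and per size of library, as the authors scaled it), a log2 fold change of -1.90 (limma adjusted p = 1.44e-06). Its near-copy Gm4737 holds 66.0% of its 50-base words, so reads of this pair cannot be assigned with certainty. Libraries held 15540442 to 17748745 assigned reads. Of 11 general macrophage markers, 10 reached 1 FPKM in at least 3 libraries, and Mertk had 2 reads in all. The summed level of the 11 markers was 8545 to 8833 in the controls and 9599 to 10885 FPKM in SAHH-KO. Most of this sum was Lyz2 (5653 ± 144 and 6616 ± 708 FPKM, limma adjusted p = 0.0670). Called higher in SAHH-KO were 6 (Adgre1, Itgam, Cd14, Fcgr1, Ptprc and Spi1), against 26.4% of all genes tested, and 0 were called lower. Csf1r stood lower without overlap, at 107 ± 8.07 and 91.0 ± 6.62 FPKM (limma adjusted p = 0.0568). Of 5 markers of large peritoneal macrophages, Gata6 and Timd4 had 0 reads, Cd9 stood at 169 ± 5.60 and 159 ± 8.97 FPKM and Icam2 fell from 1.60 ± 0.252 to 0.861 ± 0.349 FPKM (limma adjusted p = 0.0224). The list summed to 165 to 175 FPKM in control libraries and 153 to 170 FPKM in SAHH-KO libraries. No reads were found for the class II genes H2-Aa, H2-Eb1 and Ciita, and H2-Ab1 had 1 read in control and 4 in SAHH-KO. The class II list summed to 105 to 122 FPKM in control and 399 to 669 FPKM in SAHH-KO libraries. Nearly all of this sum was Cd74 (114 ± 8.15 and 513 ± 140 FPKM, limma adjusted p = 2.38e-05). Marker lists of dendritic cells, neutrophils, B cells, T and NK cells, mast cells, eosinophils and mesothelial cells with fibroblasts summed to at most 0.630 FPKM in any library. The part of these marker differences in the values below was not tested.

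Most autophagy genes did not pass the test, and those that did went both ways. Of the 36 members 34 passed the filter on low values (1 FPKM in at least 3 libraries), and 9 of these (26.5%) passed the test, against 53.3% of all 10362 genes tested. Atg13, Atg9a, Map1lc3a and Calcoco1 were higher in SAHH-KO (26.4% of all genes tested were higher), and Pik3c3, Atg2b, Atg5, Atg12 and Map1lc3b were lower (26.8% of all genes tested were lower). The test was limma on log2(FPKM + 1) with p-values adjusted over all genes tested, and an adjusted p under 0.05 was the threshold. The groups did not overlap in any of the 9 called genes and did not overlap in 17 of the 34 tested, against 62.3% of all genes tested. Median sizes of change, signs ignored, were 0.19 on the log2 scale for the members and 0.32 for all genes tested. Atg13 and Map1lc3a were the members past a log2 fold change of 1 on log2(FPKM + 1), a size reached by 10.6% of all genes tested. That scale understates changes of low genes. Calcoco1, with a log2 fold change of 0.74 on it, was at 2.42 times control in mean FPKM. In bulk samples fewer cells of a type and less RNA per cell cannot be told apart.

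The number of called members moved with library scaling, with the choice of test and with 1 control library. With values rescaled to TPM (a fixed sum per library), 3 members were higher and 13 lower. Over all 10362 genes tested 2006 were higher and 3894 lower in that setting (56.9% called), and their median moved to -0.16. The additional lower calls among the members were Atg3, Atg4a, Atg4c, Atg14, Uvrag, Gabarap, Gabarapl1 and Gabarapl2, and Atg9a was no longer called. Scaling to assigned reads gave the same members (2033 of all genes tested were higher and 3905 lower, 57.3% called). With limma's voom on the recovered reads 8 members were higher and 5 lower (2852 of all genes tested were higher and 2898 lower, 55.5% called). Without control replicate 1, 7 members were higher and 9 lower (2934 of all genes tested were higher and 2969 lower, 57.0% called). Apart from Atg9a, the 8 other calls passed the threshold under each of the 16 alternatives tried.

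**Figure D1:**
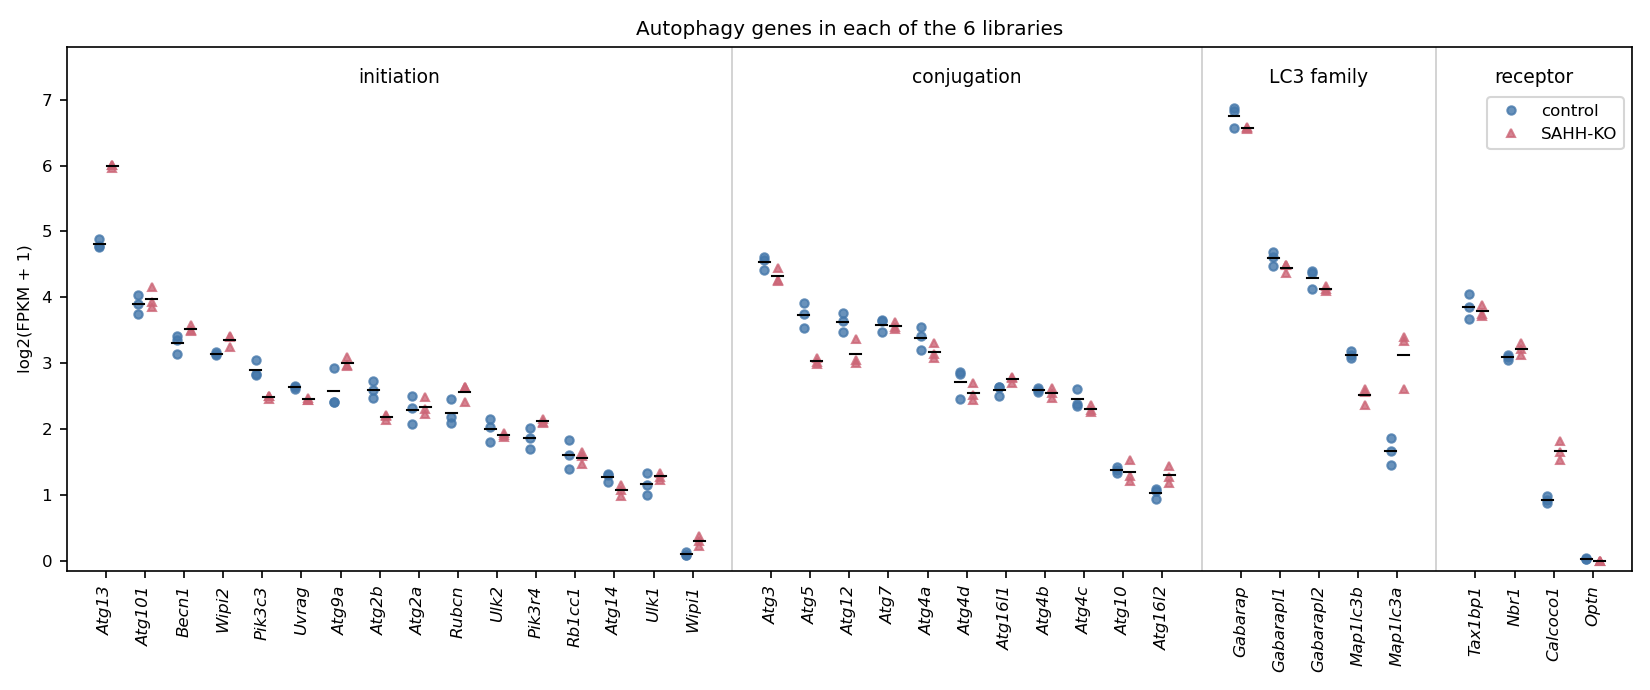
The horizontal axis lists the 36 autophagy genes by role, ordered by control mean, and the vertical axis is log2(FPKM + 1). Circles are the 3 control libraries, triangles the 3 SAHH-KO libraries and bars the group means, and Atg13, Map1lc3a and Calcoco1 show SAHH-KO values clear above control while Atg5 and Map1lc3b lie clear below.

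**Figure D2:**
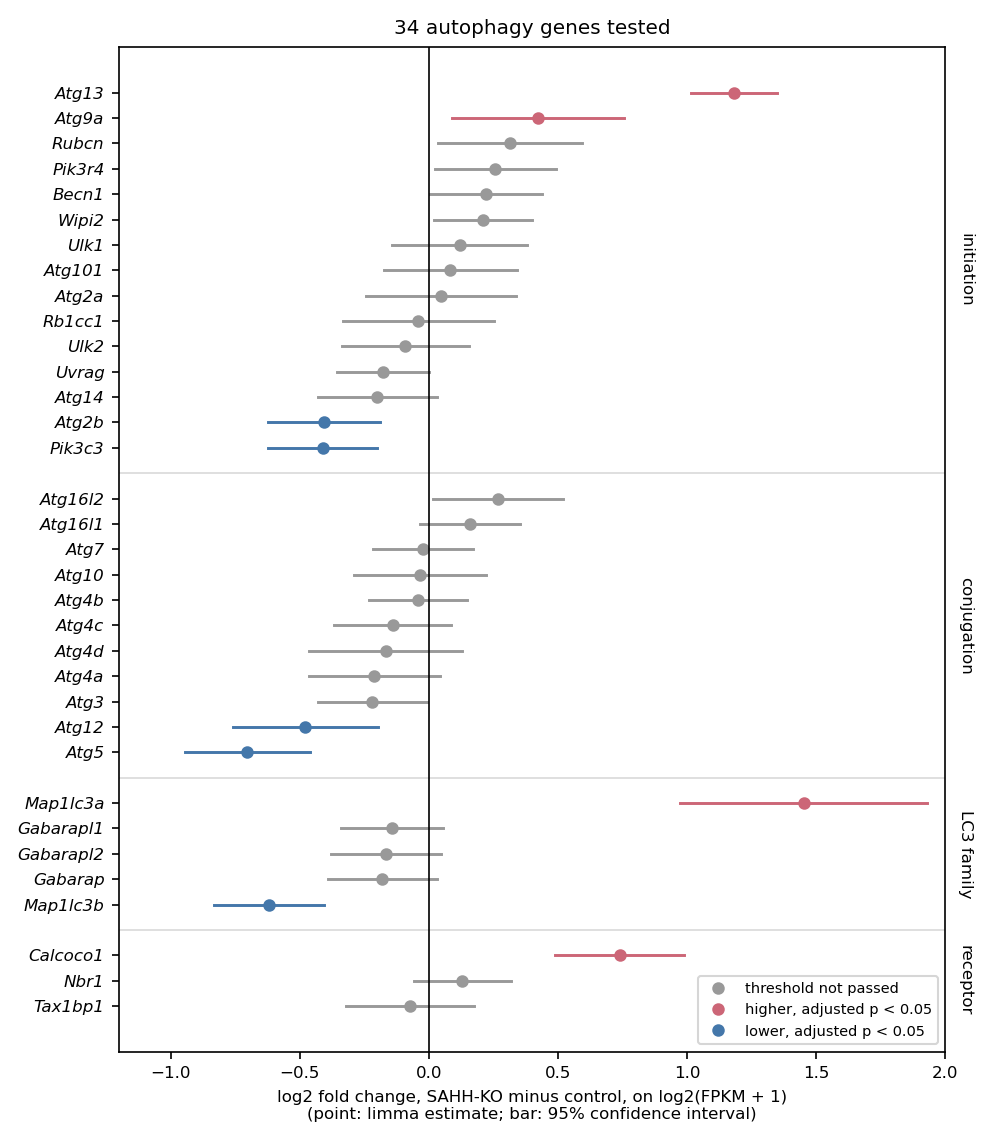
The horizontal axis is the log2 fold change (SAHH-KO minus control) on log2(FPKM + 1) for the 34 genes tested, which are listed by role on the vertical axis. Points are limma estimates, bars are 95% confidence intervals, and the intervals of the 25 genes that did not pass the threshold lie between -0.47 and 0.59.

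The ULK complex held the autophagy gene with the smallest p, Atg13, whose product is the adaptor that ties the kinase to its scaffold. Atg13 (chr2:91674618-91710576) read 28.5, 26.3 and 26.6 in the controls and 63.3, 61.5 and 63.6 FPKM in SAHH-KO. All SAHH-KO libraries were far above all controls and close to one another. The means were 27.1 ± 1.22 and 62.8 ± 1.12 FPKM (SD, n = 3), a 2.31-fold rise with a log2 fold change of 1.18 (SE 0.0723, limma adjusted p = 6.06e-06). Behind these values stood 6045 reads in control and 12966 in SAHH-KO.

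Partners of ATG13 in the same complex did not pass the test. Ulk1 and Ulk2, the kinases, had means of 1.25 ± 0.261 and 3.01 ± 0.467 in the controls and 1.43 ± 0.0895 and 2.75 ± 0.0758 FPKM in SAHH-KO. Their log2 fold changes had 95% intervals of -0.14 to 0.38 and of -0.34 to 0.15. Atg101, which stabilises ATG13, stood at 13.96 ± 1.49 and 14.9 ± 1.83 FPKM, and Rb1cc1, the scaffold FIP200, at 2.07 ± 0.459 and 1.97 ± 0.196 FPKM (limma adjusted p = 0.561 and 0.807). The difference between Atg13 and its partners was not tested. Its level per length was the highest of the 5 in control.

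The sequence in front of the Atg13 start site is shown because it belongs to the riser with the tightest replicates (chr2:91710593-91710842, minus strand, build GRCm38.p6, from RefSeq). It is written 5′ to 3′ on the strand of the gene, and capitals mark matches to the motifs searched below.
Atg13: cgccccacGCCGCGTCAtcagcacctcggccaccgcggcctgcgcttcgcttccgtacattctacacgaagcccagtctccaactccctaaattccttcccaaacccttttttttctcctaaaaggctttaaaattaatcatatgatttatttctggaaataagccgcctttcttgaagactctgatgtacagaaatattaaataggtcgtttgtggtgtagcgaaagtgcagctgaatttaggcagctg
The capitals here are a match to the antioxidant response element TGACNNNGC, read on the opposite strand. Such windows are given as descriptions of the locus, with no binding measured.

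In the class III lipid kinase complexes, which make the phosphatidylinositol 3-phosphate that marks the forming membrane, 1 of 6 genes passed the test. The share over all genes tested was 53.3%. Pik3c3, the catalytic subunit VPS34, read 6.04, 7.28 and 6.16 in the controls and 4.50, 4.69 and 4.67 FPKM in SAHH-KO. Every SAHH-KO library lay below every control, and the ratio of means was 0.711 (log2 fold change -0.41, SE 0.0918, limma adjusted p = 0.00573). The means were 6.496 ± 0.684 and 4.62 ± 0.108 FPKM. Pik3r4, the regulatory subunit VPS15 that binds VPS34, went from 2.65 ± 0.388 to 3.35 ± 0.0862 FPKM and missed the threshold (limma adjusted p = 0.0629).

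Becn1, which encodes the scaffold Beclin 1, stood at 8.91 ± 0.978 and 10.5 ± 0.387 FPKM (limma adjusted p = 0.0797). Of the subunits that distinguish the complexes, Atg14 had 1.42 ± 0.104 and 1.11 ± 0.130 FPKM and Uvrag 5.20 ± 0.105 and 4.48 ± 0.0854 FPKM. Rubcn, which encodes Rubicon, an inhibitor of the complex that holds UVRAG, had 3.77 ± 0.660 and 4.91 ± 0.535 FPKM. Their limma adjusted p-values were 0.127, 0.0832 and 0.0579. Without control replicate 1, which was the control library with the highest Rubcn, Becn1 and Pik3r4, these genes passed (limma adjusted p = 0.0116, 0.0337 and 0.0216). The groups did not overlap for Becn1, Pik3r4, Atg14 and Uvrag, although none passed the threshold with all libraries. Such a lack of overlap was found in 62.3% of all genes tested.

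Among the 4 tested genes that supply and sense the membrane, 1 rose and 1 fell, against 26.4% and 26.8% of all genes tested. Atg9a (chr1:75180860-75192196), the scramblase of the seed vesicles, read 6.64, 4.31 and 4.30 in the controls and 6.75, 6.89 and 7.499 FPKM in SAHH-KO. Control replicate 1 lay close under the lowest SAHH-KO library, far from the other controls. The ratio of means was 1.39 (log2 fold change 0.42, SE 0.146, limma adjusted p = 0.0376). This call was lost under 8 of 16 alternatives, where the limma adjusted p was between 0.0720 and 0.143. Among them were the 5 fits that left out a library other than control replicate 1 (limma adjusted p between 0.0720 and 0.130). Without control replicate 1 the log2 fold change was 0.60 (limma adjusted p = 0.000921).

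Atg2b (chr12:105616136-105685211), a lipid-transfer protein gene, read 5.61, 5.03 and 4.52 in the controls and 3.41, 3.58 and 3.67 FPKM in SAHH-KO. The groups were apart, with a ratio of 0.703 (log2 fold change -0.41, SE 0.0945, limma adjusted p = 0.00690). Its paralogue Atg2a stood at 3.94 ± 0.723 and 4.08 ± 0.452 FPKM (limma adjusted p = 0.776). Wipi2, which reads the lipid mark and recruits ATG16L1, had 7.83 ± 0.158 and 9.22 ± 0.664 FPKM and missed the threshold (limma adjusted p = 0.0620). Wipi1, its paralogue, was too low to be tested, with 5, 5 and 8 reads in control and 22, 11 and 16 in SAHH-KO. Without the filter on low values Wipi1 was called higher (log2 fold change 0.19, limma adjusted p = 0.0334). These counts leave its level under 0.31 FPKM in every library.

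Of the 11 conjugation genes 2 fell (18.2%) and none rose, against 26.8% lower and 26.4% higher over all genes tested. The 2 that fell encode parts of the same conjugate, ATG12 joined to ATG5, which with ATG16L1 directs LC3 to the membrane. Atg5 (chr10:44268358-44364291) read 10.6, 14.1 and 12.4 in the controls and 6.93, 7.12 and 7.46 FPKM in SAHH-KO. The SAHH-KO libraries lay together below the lowest control. The means were 12.4 ± 1.74 and 7.17 ± 0.270 FPKM (SD, n = 3), a ratio of 0.579 (log2 fold change -0.70, SE 0.106, limma adjusted p = 0.000765).

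Atg12 read 10.1, 12.5 and 11.5 in the controls and 7.04, 9.36 and 7.27 FPKM in SAHH-KO. SAHH-KO replicate 2 came closest to the controls, still below the lowest of them. The ratio of means was 0.695 (log2 fold change -0.48, SE 0.123, limma adjusted p = 0.0110). Atg16l1, the third partner of the complex, went from 5.06 ± 0.338 to 5.77 ± 0.231 FPKM without overlap and did not pass (limma adjusted p = 0.144). Atg16l2, its paralogue, had 1.04 ± 0.113 and 1.47 ± 0.222 FPKM (limma adjusted p = 0.0690).

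The enzymes that carry out these reactions did not pass the test with all libraries. Atg7, the shared activating enzyme, stood at 11.04 ± 0.834 and 10.8 ± 0.406 FPKM, with a 95% interval of its log2 fold change from -0.22 to 0.17. Atg3, the conjugating enzyme for LC3, had 22.3 ± 1.65 and 19.0 ± 1.60 FPKM, and Atg10, the conjugating enzyme for ATG12, 1.61 ± 0.0831 and 1.56 ± 0.296 FPKM. The proteases that prime and recycle LC3 had control means of 9.52 ± 1.27 (Atg4a), 5.03 ± 0.115 (Atg4b), 4.48 ± 0.553 (Atg4c) and 5.65 ± 0.987 (Atg4d) FPKM. Their SAHH-KO means were 8.06 ± 0.715, 4.87 ± 0.312, 3.96 ± 0.196 and 4.90 ± 0.567 FPKM, and each pair of groups overlapped. Limma adjusted p-values of these 4 genes lay between 0.140 and 0.702. Without control replicate 1, Atg3 and Atg4a were called lower (limma adjusted p = 0.0286 and 0.0279), and without control replicate 2 Atg4d was (limma adjusted p = 0.0489). Under TPM scaling Atg3, Atg4a and Atg4c passed (limma adjusted p = 0.00970, 0.0223 and 0.0385).

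The window in front of Atg5 is shown as that of the conjugation gene with the largest change (chr10:44268089-44268338, plus strand, build GRCm38.p6, from RefSeq).
Atg5: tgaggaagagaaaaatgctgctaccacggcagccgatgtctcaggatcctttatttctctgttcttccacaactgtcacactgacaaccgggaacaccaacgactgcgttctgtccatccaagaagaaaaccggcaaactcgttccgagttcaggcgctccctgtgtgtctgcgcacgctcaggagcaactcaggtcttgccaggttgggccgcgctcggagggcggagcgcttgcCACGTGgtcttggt
Its capitals mark CACGTG, the E-box core bound by factors of the MiT/TFE family, which control lysosome and autophagy genes.

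The LC3 family moved in opposite directions within its LC3 branch. Map1lc3a (chr2:155276297-155278073) read 2.17, 1.76 and 2.65 in the controls and 9.57, 5.12 and 9.13 FPKM in SAHH-KO. SAHH-KO replicate 2 was well below the others and still above the highest control. The means were 2.19 ± 0.448 and 7.94 ± 2.45 FPKM (SD, n = 3), a 3.62-fold rise (log2 fold change 1.45, SE 0.209, limma adjusted p = 0.000588). The gene rested on few reads, 133 in control and 446 in SAHH-KO.

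Map1lc3b (chr8:121590361-121598760), which encodes the LC3 protein most used as an autophagosome marker, read 7.45, 7.75 and 8.10 in the controls and 4.15, 4.93 and 5.07 FPKM in SAHH-KO. No SAHH-KO library came near the controls. The means were 7.77 ± 0.323 and 4.72 ± 0.497 FPKM, a ratio of 0.607 (log2 fold change -0.62, SE 0.0930, limma adjusted p = 0.000743). Reads numbered 2981 in control and 1670 in SAHH-KO. In the order of control means per length Map1lc3a was at place 28 and Map1lc3b at place 14 of the 36 genes, and in SAHH-KO they stood at places 13 and 21.

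The GABARAP branch, related ubiquitin-like proteins that act at later steps of autophagosome maturation, held the gene with the highest level per length, and none of its 3 genes passed the test with all libraries. Gabarap read 94.1, 115.9 and 112.1 in the controls and 94.1, 95.5 and 92.9 FPKM in SAHH-KO, so that control replicate 1 lay among the SAHH-KO libraries. Gabarapl1 had 23.2 ± 1.86 and 20.9 ± 0.983 FPKM and Gabarapl2 18.8 ± 1.98 and 16.5 ± 0.461 FPKM. Limma adjusted p-values of these 3 genes were 0.130, 0.196 and 0.162, and their log2 fold changes were -0.18, -0.14 and -0.17. Under TPM scaling the log2 fold changes of Gabarap, Gabarapl1 and Gabarapl2 were -0.34, -0.31 and -0.33 and passed the threshold. That setting moved the median of all genes tested from -0.009 to -0.16. Without control replicate 1, Gabarap and Gabarapl2 were called lower (limma adjusted p = 0.00890 and 0.0182).

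For the falling LC3 gene the upstream stretch outside annotated untranslated sequence is given (chr8:121590188-121590360, plus strand, build GRCm38.p6, from RefSeq).
Map1lc3b: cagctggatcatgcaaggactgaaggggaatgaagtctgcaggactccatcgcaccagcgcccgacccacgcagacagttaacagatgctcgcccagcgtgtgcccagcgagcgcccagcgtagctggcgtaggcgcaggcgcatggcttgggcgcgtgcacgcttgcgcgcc
No motif searched was matched in this stretch of 173 bases, of which 65.9% were G or C.

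Families of paralogues were compared by each gene's share of the family's summed FPKM, since levels of different genes can be set side by side only per length. The Map1lc3a share of Map1lc3a plus Map1lc3b was 22.6, 18.5 and 24.7% in control and 69.7, 50.9 and 64.3% in SAHH-KO. Per length, Map1lc3a was thus the smaller part in every control and the larger part in every SAHH-KO library. The difference in means was 39.7 percentage points (exact two-sided permutation p = 0.10, the smallest that 3 against 3 libraries can give, and 0.24 adjusted over 12 shares). The size of the shift, and which gene is the larger part in SAHH-KO, rest on gene length. The authors' length for Map1lc3b is 7517 bases and that for Map1lc3a 1181 bases. Counted in reads, the Map1lc3a share went from 4.24 ± 0.739% to 20.9 ± 6.36%, 16.6 percentage points. The summed LC3 level was 9.96 ± 0.684 in the controls and 12.7 ± 2.27 FPKM in SAHH-KO, with SAHH-KO replicate 2 at 10.0 FPKM below the highest control.

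In other families the shares moved by fewer percentage points. The Gabarap share of its family was 71.9 ± 0.673% and 71.6 ± 0.594%, and the shares of Atg4a, Atg4b, Atg4c and Atg4d differed by -1.53, 1.98, 0.0882 and -0.544 percentage points. Without overlap between groups, the share of Atg2a went from 43.7 ± 4.19% to 53.4 ± 2.41% and that of Atg16l1 from 82.9 ± 0.663% to 79.8 ± 2.25%. Per length, Atg2a was also the smaller part in every control, at 45.3, 38.9 and 46.8%. In SAHH-KO it was the larger part in every library, at 52.1, 56.2 and 51.9%. Counted in reads, Atg2a was the smaller part throughout. The Ulk1 share was 29.5 ± 6.01% and 34.2 ± 1.31%, and Wipi1 made up 1.01 ± 0.247% and 2.50 ± 0.883% of the sum of Wipi1 and Wipi2. Each of these 4 shares had the same exact permutation p of 0.10.

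**Figure D3:**
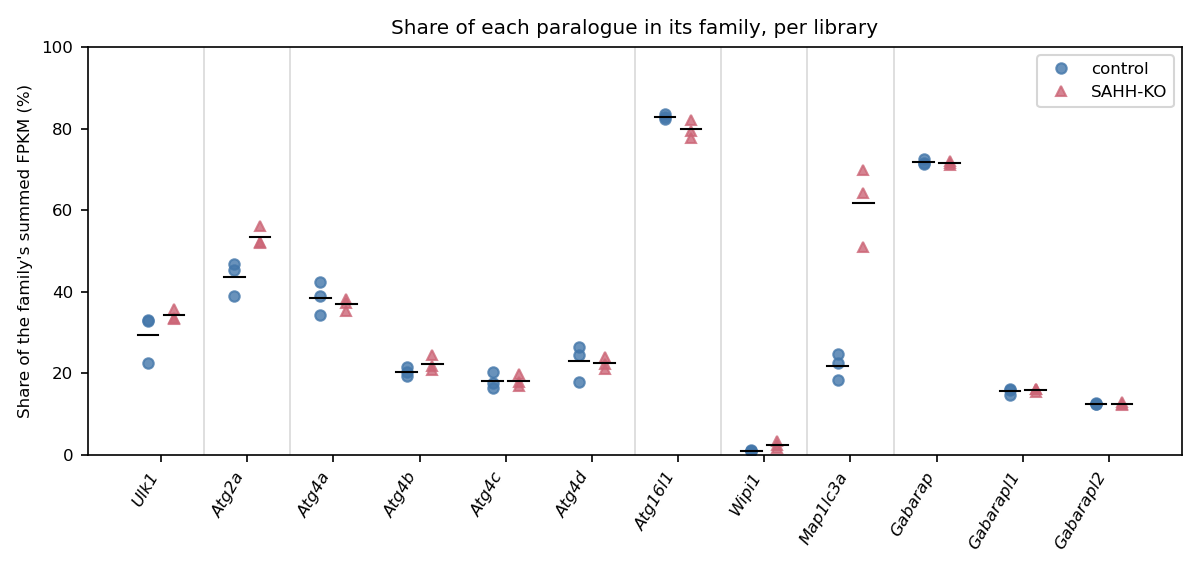
The vertical axis is the share (%) of each paralogue in the summed FPKM of its family, with families divided by vertical lines, and for families of 2 genes only the first is drawn. Circles are control libraries, triangles SAHH-KO libraries and bars group means, and Map1lc3a moves from between 18.5 and 24.7% to between 50.9 and 69.7%.

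Of the 4 receptor genes, which link cargo to LC3 proteins, 3 were tested and 1 rose, against 26.4% of all genes tested. Calcoco1 (chr15:102706777-102722178), a receptor for parts of the endoplasmic reticulum and Golgi, read 0.906, 0.830 and 0.976 in the controls and 2.53, 1.89 and 2.14 FPKM in SAHH-KO. The groups were well apart at a low level. The means were 0.904 ± 0.0728 and 2.19 ± 0.320 FPKM (SD, n = 3), 2.42-fold higher in SAHH-KO (log2 fold change 0.74, SE 0.108, limma adjusted p = 0.000661). Calcoco1 passed the filter only through its SAHH-KO values.

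Nbr1, a receptor for ubiquitin-tagged cargo, had 7.504 ± 0.212 and 8.31 ± 0.567 FPKM without overlap between the groups (limma adjusted p = 0.217). Tax1bp1, a receptor that also restrains NF-κB signalling, had 13.6 ± 1.90 and 12.8 ± 0.839 FPKM (limma adjusted p = 0.603). Optn, which encodes optineurin, a receptor for bacteria and damaged mitochondria, was close to undetected. It had 1, 1 and 2 reads in the control libraries and 0 in each SAHH-KO library, all under the floor of 3 reads per library, so no fold was computed and it was not tested.

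Upstream of Calcoco1 the window held no match to any motif searched and is shown as that of the riser among the receptors (chr15:102722179-102722428, minus strand, build GRCm38.p6, from RefSeq).
Calcoco1: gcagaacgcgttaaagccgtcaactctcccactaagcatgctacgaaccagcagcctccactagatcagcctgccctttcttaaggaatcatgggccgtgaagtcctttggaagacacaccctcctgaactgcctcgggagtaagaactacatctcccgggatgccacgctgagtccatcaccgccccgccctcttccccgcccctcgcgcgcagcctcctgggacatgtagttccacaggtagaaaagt
Its G and C content was 57.6%, against 46.4% in the Atg13 stretch and 56.4% in that of Atg5.

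Promoter windows reached from 250 bases before to 50 bases after the start, and 30 of the 36 genes had 35 such windows. The windows of Atg12, Atg16l1, Becn1, Map1lc3a, Pik3c3 and Rb1cc1 were not used here. The search covered 8 motifs on both strands. Median G and C content of the 250 upstream bases was 58.8% in member windows and 52.4% in all windows. Its part in the matches was not tested. The E-box core CACGTG lay in 5 of the 35 windows (Atg3, Atg5, Atg7, Atg14 and Rubcn), against 7.15% of all 32851 windows. Of these 5 genes only Atg5 passed the test. TGACNNNGC was found in 4 of the 35 windows (Atg13, Map1lc3b, Tax1bp1 and Ulk2), against 12.4% of all windows, and the match in Map1lc3b lies after its start. The pair of called genes among these went in opposite directions. The gamma-activated site TTCNNNGAA was in 4 of the 35 windows, those of Gabarap, Gabarapl1, Nbr1 and Wipi1 (8.30% of all windows). The interferon-stimulated response element (GAAA, 2 bases, GAAA) was in 1, that of Nbr1 (3.44%). The cAMP response element TGACGTCA was in 2, those of Atg5, where it reaches over the start site, and Atg16l2 (1.79%). The κB motif (GGG, 2 bases, TTTCC) was in 1, that of Wipi2 (1.63%). TTGCATCA, the amino acid response element, and GTAAACAA, a FOXO site, were matched in no member and in 0.895% and 1.23% of all windows. Motifs may overlap, and a match is a run of letters only.

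The other genes of the pathway were read from 7 lists, chosen for function with earlier results of these data known. Of 118 genes 102 were tested. Of these 22 rose and 30 fell, 51.0% in all, against 53.3% over all genes (26.4% higher and 26.8% lower). Their median difference was -0.05 on the log2 scale. Under TPM scaling 17 were higher and 41 lower, against 2006 higher and 3894 lower of all 10362 genes tested. Among nutrient-sensing genes around mTORC1, the kinase complex that holds autophagy back, 7 of 28 tested were higher and 7 lower. Sesn2 and Ddit4, stress-induced inhibitors of mTORC1, rose from 12.4 ± 0.892 and 4.37 ± 0.681 FPKM to 45.3 ± 2.73 and 16.4 ± 1.36 FPKM. Flcn, a regulator of the lysosomal Rag GTPases, fell from 16.5 ± 1.34 FPKM to 0.539 of that mean, and Lamtor5, of the lysosomal anchor of mTORC1, from 98.3 ± 1.09 to 70.5 ± 3.08 FPKM. Limma adjusted p-values of these 4 were at most 0.000711.

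In the AMPK list, the energy-sensing kinase that activates ULK1, 1 of 9 tested genes was higher and 3 were lower. Over all genes tested 26.4% were higher and 26.8% lower. Of the AMPK list 5 were lower under TPM scaling and 6 under assigned-read scaling, where 3894 and 3905 of all 10362 genes tested were lower. Camkk2, a kinase upstream of AMPK, rose from 6.99 ± 0.831 to 21.4 ± 3.89 FPKM, while the subunit genes Prkab1, Prkag1 and Prkag2 fell to 0.759, 0.679 and 0.545 of their control means (limma adjusted p at most 0.0118). Prkag1 missed the threshold without control replicate 3 (limma adjusted p = 0.0512). Of the MiT/TFE and FOXO list 2 of 6 tested were higher and 1 lower. Mitf and Tfec encode members of the MiT/TFE family of E-box binding factors. Mitf rose from 7.39 ± 0.496 to 19.7 ± 0.559 FPKM and Tfec fell from 10.5 ± 0.854 to 3.51 ± 1.01 FPKM (limma adjusted p = 6.14e-06 and 0.000223). Zkscan3, a repressor of autophagy genes, rose from 3.06 ± 0.0566 to 4.46 ± 0.178 FPKM (limma adjusted p = 0.00254). Tfeb itself, at 0.578 ± 0.148 and 0.712 ± 0.0952 FPKM, was not tested, and is named outside the rule for naming genes.

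Of 15 further nucleation and membrane genes, 7 fell and 1 rose, against 26.8% lower and 26.4% higher over all genes tested. The number that fell was 4 without control replicate 2 or 3 or SAHH-KO replicate 2 or 3. The riser was Ambra1, a partner of Beclin 1 and of ubiquitin ligases, from 13.2 ± 2.14 to 23.0 ± 0.711 FPKM (log2 fold change 0.77, limma adjusted p = 0.000597). Wdr45b, a WIPI relative, Ei24 and Rab1b fell to 0.628, 0.697 and 0.734 of control (limma adjusted p at most 0.00371). Of 17 genes of fusion with lysosomes, 6 fell and 3 rose, against the same shares over all genes tested. The risers numbered 0 under TPM scaling and without control replicate 3 and 1 without SAHH-KO replicate 1 or 2. Those that fell numbered 3 without SAHH-KO replicate 1 but 10 under TPM scaling. That scaling gave 2006 higher and 3894 lower of all 10362 genes tested. Arl8b, a GTPase that positions lysosomes, fell from 41.5 ± 6.87 to 22.4 ± 0.890 FPKM, Vps33a, of the tethering complex HOPS, from 29.5 ± 0.891 to 18.8 ± 1.83 FPKM and the SNARE gene Ykt6 from 40.03 ± 3.18 to 27.2 ± 2.39 FPKM (limma adjusted p at most 0.00169). Epg5, a tether, rose from 3.73 ± 0.449 to 5.16 ± 0.306 FPKM, a call that was lost without control replicate 3 (limma adjusted p = 0.0533) and under TPM scaling (limma adjusted p = 0.0629).

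Of the other receptors 2 were higher and 5 lower among 18 tested (26.4% and 26.8% over all genes tested). The number lower was 3 without SAHH-KO replicate 1 or 3. Sqstm1, the receptor p62 that binds ubiquitin and LC3, read 490, 459 and 495 in the controls and 1614, 1031 and 1192 FPKM in SAHH-KO, a 2.66-fold rise (log2 fold change 1.38, limma adjusted p = 0.000122). It stood far above each receptor of the member list in every library. Bnip3, a mitochondrial receptor, rose to 1.30 times control, a call lost under TPM scaling (limma adjusted p = 0.0922) and without SAHH-KO replicate 3 (limma adjusted p = 0.0657). Tollip and Ncoa4, the latter a receptor for ferritin, fell to 0.734 and 0.706 of control (limma adjusted p at most 0.00523). Calcoco2, named after its values were seen, had 0 reads in all libraries, and Ccpg1, chosen likewise, had 1 read in all.

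Of 9 tested kinases and ubiquitin ligases that act on autophagy, 6 rose and 1 fell, against 26.4% higher and 26.8% lower over all genes. The number that fell was 0 without SAHH-KO replicate 2 or 3, and 2 without control replicate 2. This list too was chosen with earlier results of these data known. Tbk1, which phosphorylates receptors such as optineurin, rose from 26.5 ± 1.08 to 40.4 ± 0.331 FPKM, and Trim21, a ligase known to be induced by interferon, from 2.56 ± 0.423 to 19.1 ± 2.62 FPKM. Mark4 and Dapk1, a kinase of Beclin 1, rose 1.72-fold and 1.60-fold. Limma adjusted p-values of these 4 were at most 0.00100.

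**Figure D4:**
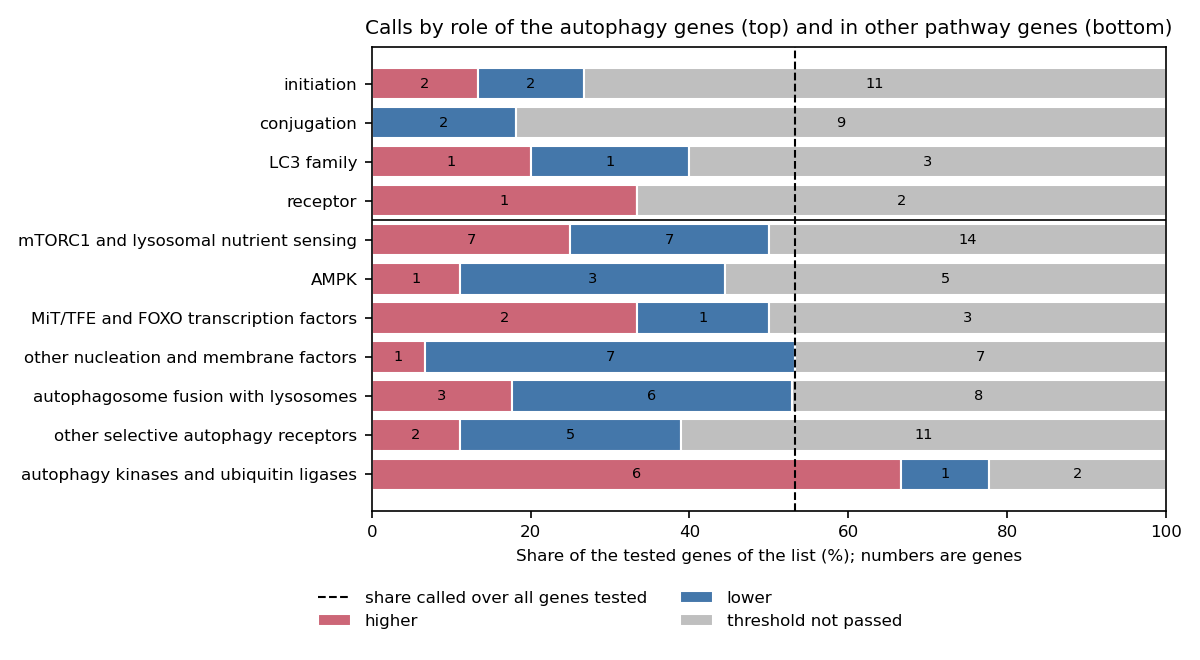
Bars give the share (%) of tested genes in each list that were higher, lower or past neither, with numbers of genes written in the bars. The 4 role groups of the autophagy genes are above the line and 7 lists of other pathway genes below it, and the dashed line is the 53.3% called over all genes tested, which none of the 4 role groups reached.

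Counting limits touch some of these genes. Exon bases shared with a gene annotated at the same place made up 43.9% of Becn1, 31.8% of Atg9a, 28.3% of Gabarapl1, 19.3% of Atg4d and 17.6% of Uvrag, and the sources used here do not give whether counting used strand. For Atg9a this overlap is with Gm29253 on the same strand, which had 0 reads in all libraries. Ankzf1, which touches Atg9a on the other strand over 0.798% of its exon bases, rose from 2.79 ± 0.123 to 4.03 ± 0.0801 FPKM. Zcchc14 overlaps Map1lc3b on the other strand by 0.772% and fell from 4.15 ± 0.523 to 2.96 ± 0.0401 FPKM, while Gskip, beside Atg2b, stood at 3.42 ± 0.332 and 3.49 ± 0.432 FPKM. The part of these neighbours in the member values was not tested. Atg4a shares 51.2% of its 50-base words with Atg4a-ps, which had at most 6 reads in a library. Shared exon bases of 55.8% and 55.9% also marked Ccpg1 and Bloc1s1, the latter with 8 reads in control and 9 in SAHH-KO. Atg12, a called gene, has other coordinates in GENCODE M21, the annotation used for overlaps. Its exons cover 7711 bases there, against 2492 bases in the authors' table. The part of this difference in its level per length was not tested.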

How the data were processed

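RNA-seq values of 6 libraries, 3 control and 3 SAHH-KO, were used. The authors deposited 1 table of FPKM values per gene with gene lengths and coordinates. Per the submitters' processing notes, FastQC, Trim Galore, STAR and featureCounts were run on GRCm38 or mm10, with versions and settings not given in the sources used here. FPKM times gene length came out as whole multiples of 1 step per library for 100% of values above 0 (within 0.01 of a read). The reads recovered from these steps give the depth, 15540442 to 17748745 per library, and a floor of 3 reads, worth 0.168 to 0.197 FPKM for a gene of 1 kb; floors cover counting error only.

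Genes with at least 1 FPKM in at least 3 libraries were tested with limma 3.58.1 in R 4.3.3 (lmFit and eBayes, trended on intensity) after log2(FPKM + 1), which understates changes of low genes. The group was the only term, tests were two-sided, and p-values were adjusted by Benjamini-Hochberg over all 10362 genes, with 0.05 as the threshold. Folds are ratios of mean FPKM. The fit was also run on simulated data in which far fewer genes changed than were called here, so no conclusion about these data is drawn from it. Overlaps and shared words come from GENCODE M21. The members, lists, tests and alternatives were chosen with earlier results of these data known. Named were all 36 members, up to 4 called genes with the smallest p per list, Ahcy, and genes that overlap exons of called members. No pair of libraries held identical values.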

Additional observations from a re-analysis of the deposited data

How the results depend on the processing

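With 10 other settings and each library left out in turn, 8 of the 9 member calls held in each of the 16 alternatives plus the reported fit, namely Atg13, Map1lc3a, Calcoco1, Pik3c3, Atg2b, Atg5, Atg12 and Map1lc3b, and no called gene changed sign. Members called higher numbered 8 with limma's voom on the recovered reads (Atg16l2, Pik3r4, Rubcn and Wipi2 in addition) and 3 to 7 with a library left out, 7 being without control replicate 1. Members called lower numbered 13 with TPM and 13 with assigned-read scaling, and 5 to 9 with a library left out, 9 being without control replicate 1. The library size behind the deposited FPKM differed from the depth. As a ratio to depth it ran from 1.05 to 1.07 over the control libraries and from 0.937 to 0.960 over those of SAHH-KO. Assigned-read scaling puts the depth in its place, which lowers SAHH-KO relative to control for every gene with reads. Why the counts moved in the other settings was not tested. Among all genes tested, 2736 genes were higher and 2782 lower, and with TPM scaling 2006 and 3894, a shift of the median gene to -0.16.

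The labels number the replicates 1 to 3 in both groups, and same-numbered libraries deviated from their group means with correlations of 0.10, 0.10 and -0.01 across genes, so they were not taken as pairs. With a replicate block 5 members were higher and 5 lower (Rubcn in addition), and 2729 genes were higher and 2761 lower. Chosen after seeing the data, shares counted in reads gave a difference of 16.6 percentage points for Map1lc3a and 0.640 for Wipi1. Depth limits Optn and Wipi1, with 4 reads in all for the former and 18 and 49 in control and SAHH-KO for the latter. The 7 lists of other pathway genes gave 17 to 23 higher and 21 to 41 lower calls over the alternatives. Calls over all genes tested ran from 2006 to 3012 higher and from 2199 to 3905 lower.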
